A study of Mus musculus with 6 samples.

Results

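Melanocytes are the pigment cells of skin, and the 9 genes described here are Tyr, Tyrp1, Dct, Pmel, Mlana, Slc45a2, Oca2, Mitf and Sox10, which together mark the cell and build its pigment organelle, the melanosome. The genes were chosen by name, and all 9 were on the array, with 12 probes on 21 spots, among 36091 gene symbols or names. They were measured in 3 skin tumors and 3 healthy skins of female FVB/N mice, on 1-colour Agilent arrays that compare RNA abundance by the brightness of a Cy3 label. The tumors, labelled cSCC (cutaneous squamous cell carcinoma), came from skin painted with the carcinogen DMBA and then with the phorbol ester PMA, also called TPA. PMA was given for 6 weeks, a second DMBA dose followed in week 8, and PMA was then resumed for 14 weeks. The healthy skins came from acetone-treated mice. Each RNA came from a whole biopsy, 0.2 µg was labelled, and its RNA integrity number was 9. The labels give neither the age of the animals nor the body site. They do not say whether every biopsy came from a separate mouse, so the tests measure the spread between these biopsies. No skin painted with DMBA and PMA but free of tumor is among the samples, so the effect of the painting and that of the tumor cannot be told apart.

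Melanocytes of mouse trunk skin sit mainly in hair follicles, where they make pigment while a hair grows and pass it to the hair. The transcription factor Mitf switches on the pigment genes, often through a short promoter motif called the M-box, and Sox10 acts upstream of Mitf. FVB/N mice are albino because they carry the albino allele of Tyr, whose protein product cannot start melanin synthesis. Their melanocytes can still carry the RNAs of the pathway.

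Mitf and Sox10 fell in the tumors, below the level of every healthy skin. Dct, Tyrp1, Pmel and Mlana were 2.64 to 5.21 log2 units higher in healthy skins 1 and 3 than in healthy skin 2. Slc45a2 was well above background in healthy skins 1 and 3 and not in healthy skin 2. With all 6 arrays none of these 5 genes passed the test. Tyr differed least of the tested genes, and Oca2 was at the edge of detection. Of the 8 genes that passed the filter on dim probes (3 or more arrays where the probe stood well above its background), 2 were lower in tumors at an adjusted p under 0.05 and 0 were higher. Over all 24753 features tested, 15.6% were called lower, 10.3% were called higher, and 25.9% were called in either direction. The median log2 fold change was -2.78 over the 8 genes and -0.16 over all features, a description only, since a gene at low levels passes such a filter through the group where it is higher. All levels below are log2 signals over the array's 75th percentile of processed signals, so that 0 is the brightness of that percentile. Fold changes are differences of these levels, tumor minus healthy skin. Levels of different genes are read by different probes and are not compared.

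**Figure D1:**
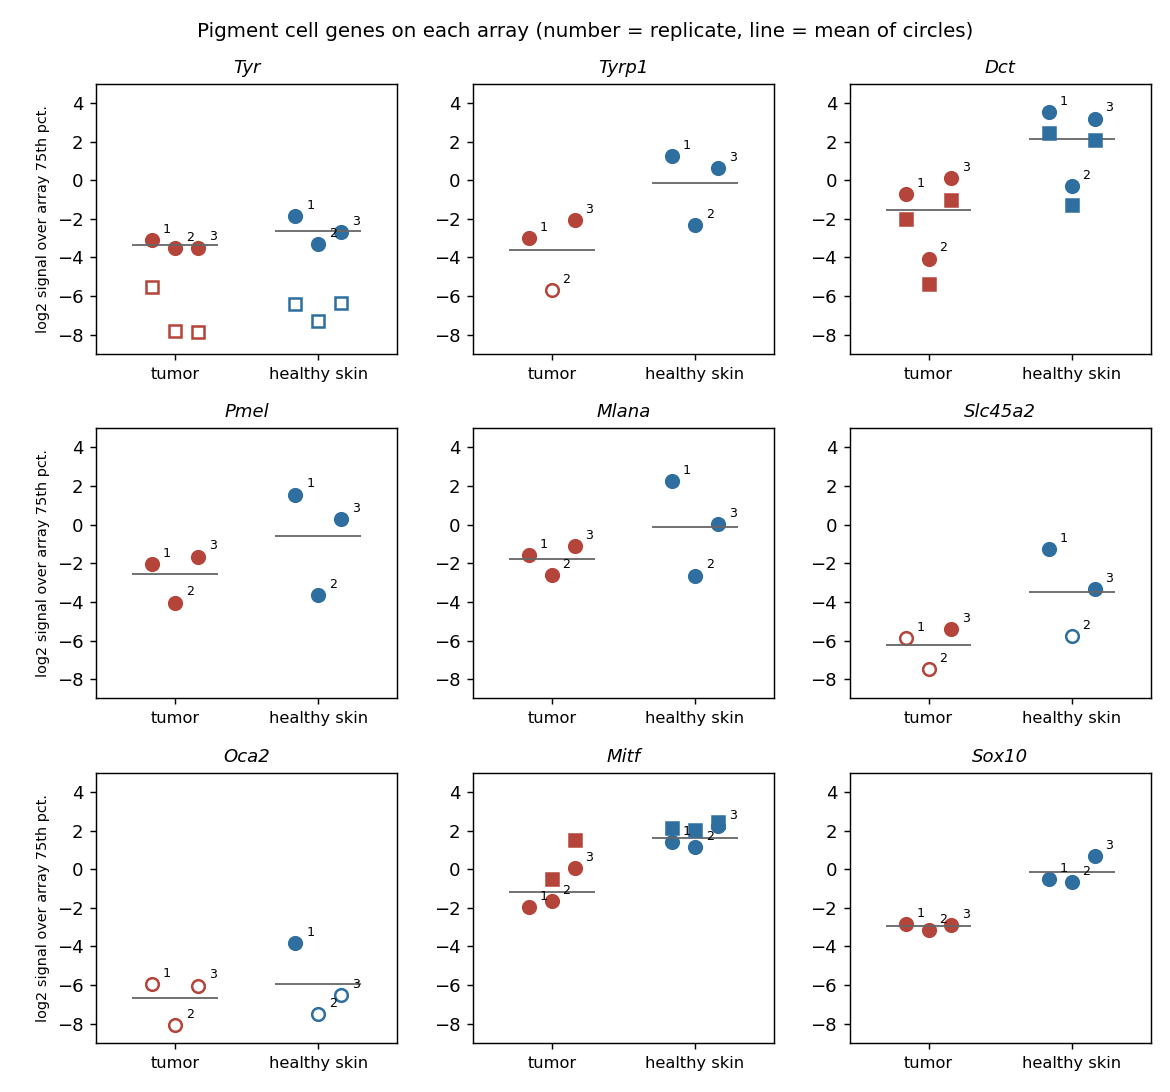
Level of each of the 9 genes on each array (vertical axes, log2 signal over the array's 75th percentile; tumors left, healthy skins right; numbers give the replicate). Circles are the probe that stands for the gene, squares a second probe, open symbols are not well above background, and lines are group means of the circles; Mitf and Sox10 have tumors and healthy skins apart, while healthy skin 2 lies near or among the tumors for the pigment enzymes and melanosome proteins.

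Sox10, a transcription factor of the neural crest that is needed in both melanocytes and Schwann cells, was -2.85, -3.17 and -2.88 in tumors 1, 2 and 3, against -0.50, -0.65 and 0.69 in healthy skins 1, 2 and 3. All tumors lay below all healthy skins, as did 29% of all features. The groups averaged -2.97 ± 0.18 in tumors and -0.16 ± 0.73 in healthy skin (SD, n = 3 each). This is a log2 fold change of -2.81 ± 0.40 (SE), or 7.02-fold lower in tumors (limma, adjusted p = 0.00359). The Sox10 probe lies on chromosome 15 at 78985518 to 78985577, minus strand (mm9).

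Mitf, the basic helix-loop-helix factor that drives pigment genes and is also used by mast cells and osteoclasts, was -1.95, -1.65 and 0.07 in the tumors, against 1.38, 1.16 and 2.25 in the healthy skins. No tumor reached a healthy skin, although tumor 3 came closest. The means were -1.18 ± 1.09 in tumors and 1.60 ± 0.57 in healthy skin (SD, n = 3 each), and the log2 fold change was -2.77 ± 0.58 (SE), or 6.84-fold lower (limma, adjusted p = 0.0136). A second Mitf probe had its spot flagged as an outlier on tumor 1, which was left out there. It was -0.51 and 1.51 in tumors 2 and 3, against 2.12, 2.05 and 2.46 in the healthy skins. It had the same order of groups with a log2 fold change of -1.71, which did not pass in a fit of all probes without the filter (limma, adjusted p = 0.176). The array files list both probes (chromosome 6, 97968501 to 97968560 and 97971229 to 97971288, plus strand, mm9) under the same Mitf transcripts, so forms that start at different promoters were not separated.

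The call of Mitf did not hold without the healthy skin 3 and tumor 1 arrays, which had the lowest shares of spots well above background (log2 fold change -2.06; limma, adjusted p = 0.0847). Sox10 was still called there. Both calls depended on how the arrays were scaled. When arrays were scaled to the spike-in controls, the median of all features moved to 0.73, 29.3% of calls were lower with that scaling and 60.2% with the 75th percentile, and neither gene passed. With the spike-ins Mitf had a log2 fold change of -1.88 (adjusted p = 0.107, 0.00438 to 0.107 over 19 alternatives). Sox10 had -1.92 (adjusted p = 0.0601, 0.00263 to 0.0601 over 19 alternatives). Either scaling shifts all features of an array by the same amount, so the distance to the median of all features, -2.61 for Mitf and -2.65 for Sox10, is the same under both by construction. In bulk tissue, fewer cells of a type and less RNA per cell cannot be told apart.

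Dct (dopachrome tautomerase, which isomerises an intermediate of melanin) was -0.72, -4.06 and 0.11 in the tumors, against 3.53, -0.30 and 3.18 in the healthy skins. Healthy skins 1 and 3 were above every tumor, and healthy skin 2 was between tumors 1 and 3. The means were -1.56 ± 2.21 in tumors and 2.14 ± 2.12 in healthy skin (SD, n = 3 each), and the log2 fold change of -3.69 ± 1.32 (SE) did not pass (limma, adjusted p = 0.0768). A second Dct probe that shares 44 bases with the first gave -2.02, -5.39 and -1.04 in the tumors, against 2.42, -1.31 and 2.07 in the healthy skins. Both probes thus placed the 6 biopsies alike, with tumor 2 lowest and healthy skin 1 highest, though their shared bases mean they are not independent readings.

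Tyrp1 (tyrosinase-related protein, an enzyme of brown-black melanin) was -3.02, -5.69 and -2.07 in the tumors, against 1.23, -2.31 and 0.64 in the healthy skins. Its spot was not well above background on tumor 2, and healthy skin 2 again fell among the tumors. The log2 fold change was -3.45 ± 1.16 (SE; limma, adjusted p = 0.0646), between means of -3.59 ± 1.88 in tumors and -0.15 ± 1.90 in healthy skin (SD, n = 3 each). The Tyrp1 probe is at chromosome 4, 80497524 to 80497583, plus strand, and the first Dct probe at chromosome 14, 118412029 to 118412088, minus strand (mm9).

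Tyr itself (tyrosinase, the first enzyme of melanin synthesis and the one that is inactive in albino mice) was read by a pair of probes without shared bases, and only one of them was measured. Their sequences are shown because the gene's reading depends on which probe is used: the first is printed whole and the second by its first 30 bases, both 5′ to 3′ on the transcript strand.
Tyr probe at chr7:94632414-94632473 (mm9, minus strand): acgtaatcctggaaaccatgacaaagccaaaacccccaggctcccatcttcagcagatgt
Tyr probe at chr7:94576265-94576324 (mm9, minus strand): tactctgctacctagcatgtatatataaat

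The first Tyr probe starts at transcript base 954. It gave -3.09, -3.51 and -3.49 in the tumors, against -1.84, -3.32 and -2.71 in the healthy skins, and it was well above background on all of them. The groups overlapped only through healthy skin 2, which lay between tumor 1 and the other two tumors. The log2 fold change was -0.74 ± 0.41 (SE; limma, adjusted p = 0.213), and it turned to 0.15 with spike-in scaling. The second probe starts at transcript base 2897 and is spotted 10 times. It was not well above background on any of the 6 arrays, with levels of -7.89 to -5.51 in tumors and -7.31 to -6.38 in healthy skin, so no fold is given from it. Tyr RNA was thus above background in these albino skins and tumors by the first probe and not by the second.

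All 3 enzymes had a promoter in the RefSeq table used (GRCm38.p6, 250 bases before to 50 after a start), and their windows are shown because Tyrp1 and Dct moved together over the 6 biopsies. Capitals mark TCATGTG, the M-box core with one flanking base, and all 3 windows are written 5′ to 3′ on the gene's strand.
Tyr, chr7:87493513-87493564, minus strand: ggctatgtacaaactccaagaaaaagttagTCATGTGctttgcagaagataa
Tyrp1, chr4:80834136-80834202, plus strand: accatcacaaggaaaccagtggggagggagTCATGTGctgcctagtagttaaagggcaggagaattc
Dct, chr14:118052361-118052427, minus strand: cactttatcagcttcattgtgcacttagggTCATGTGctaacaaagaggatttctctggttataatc

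TCATGTG, searched on both strands, begins 22 bases before the start in Tyr, 47 before it in Tyrp1 and 151 before it in Dct. Dct holds a further copy on the opposite strand, 232 bases before its start. The motif was in 3.77% of the 32851 promoters of the table, and its inner CATGTG, which every TCATGTG contains, was in 14.2%. The longest stretch common to the 3 windows was GTCATGTGCT, found in 61 promoters (0.19%), a stretch that was picked after the sequences were seen. Neither Oca2 nor any of the 3 Mitf entries held TCATGTG in this window, and Oca2 had CATGTG 186 bases before its start on the opposite strand. The SOX motif letters ACAAAG, present in 18.7% of promoters, occurred in Dct, Tyrp1 and Oca2, while ACAATG (12.6%) occurred only in Dct and the E-box CACGTG (7.15%) in none of the 5 genes. These matches are descriptions of sequence, and binding was not measured. Tyr, Tyrp1 and Dct, which all hold TCATGTG, had log2 fold changes of -0.74, -3.45 and -3.69.

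Pmel, which forms the amyloid fibrils on which melanin is laid down, was -2.04, -4.04 and -1.65 in the tumors, against 1.56, -3.66 and 0.30 in the healthy skins. Healthy skin 1 was 37.1-fold above healthy skin 2, a gap larger than the difference between the group means. The log2 fold change was -1.97 ± 1.30 (SE; limma, adjusted p = 0.287). The probe, listed at chromosome 10, 128156029 to 128156986 on the plus strand (mm9), spans 958 bases of genome and so crosses an intron.

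Mlana, a small melanosome membrane protein that partners Pmel, was -1.57, -2.60 and -1.10 in the tumors, against 2.27, -2.63 and 0.01 in the healthy skins. Healthy skin 2 was at the level of tumor 2, and the log2 fold change of -1.64 ± 1.12 (SE) did not pass (limma, adjusted p = 0.303). Its probe is at chromosome 19, 29782737 to 29782796, plus strand (mm9).

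Slc45a2, a transporter that helps set the pH of the melanosome, was -5.86, -7.48 and -5.42 in the tumors, against -1.26, -5.79 and -3.36 in the healthy skins. The spot was well above background in 1 of 3 tumors (tumor 3) and in 2 of 3 healthy skins, healthy skin 2 being the exception. Its log2 fold change was -2.79 ± 1.09 (SE; limma, adjusted p = 0.0989), and this size rested on the treatment of dim spots. It was -1.24 with normexp background correction and -1.06 in the deposited table. The probe is at chromosome 15, 10958929 to 10958988, plus strand (mm9).

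Oca2, a melanosomal ion transporter, was well above background only on healthy skin 1 and did not pass the filter. It was -5.95, -8.07 and -6.03 in the tumors, against -3.82, -7.52 and -6.53 in the healthy skins. The lower limit of the healthy level over the detection floor of the tumor arrays was under 1, so no fold is given. In the fit without a filter its log2 fold change of -0.73 did not pass (limma, adjusted p = 0.759).

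The values of the pigment enzymes and melanosome proteins depended on which healthy skins were in the group. Without healthy skin 1, Mlana had a log2 fold change of -0.45, Pmel of -0.89, Slc45a2 of -1.68 and Tyr of -0.35, and none passed. With healthy skin 2 left out instead, 7 of the 8 genes were lower in tumors, where 10.4% of all features were called lower. Tyrp1 then had a log2 fold change of -4.53 (limma, adjusted p = 0.0284, 0.00356 to 0.226 over 18 alternatives) and Dct of -4.91 (0.0327, 0.00242 to 0.240 over 19). Pmel had -3.50 (adjusted p = 0.0292, 0.0292 to 0.620 over 19 alternatives), Mlana -2.90 (0.0438, 0.0438 to 0.721 over 19) and Slc45a2 -3.95 (0.0241, 0.0236 to 0.270 over 18). Slc45a2 was well above background in only 1 of 3 tumors and Tyrp1 in 2 of 3, so the sizes of their fold changes are uncertain. Mitf and Sox10 stayed called, at limma adjusted p of 0.0294 and 0.00890, and Tyr did not pass. The setting without healthy skin 2 was singled out after the values were seen. Its added calls follow in part from the low levels on that array and are not independent support. The healthy skin 2 array had a share of spots well above background of 63.6%, against 62.2% and 57.4% for healthy skins 1 and 3, and a median local background of 26, against 26 and 23. Leaving out any other single array did not change the call of any of the 8 genes, although without tumor 2 the log2 fold change was -2.44 for Dct and -1.24 for Pmel.

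**Figure D2:**
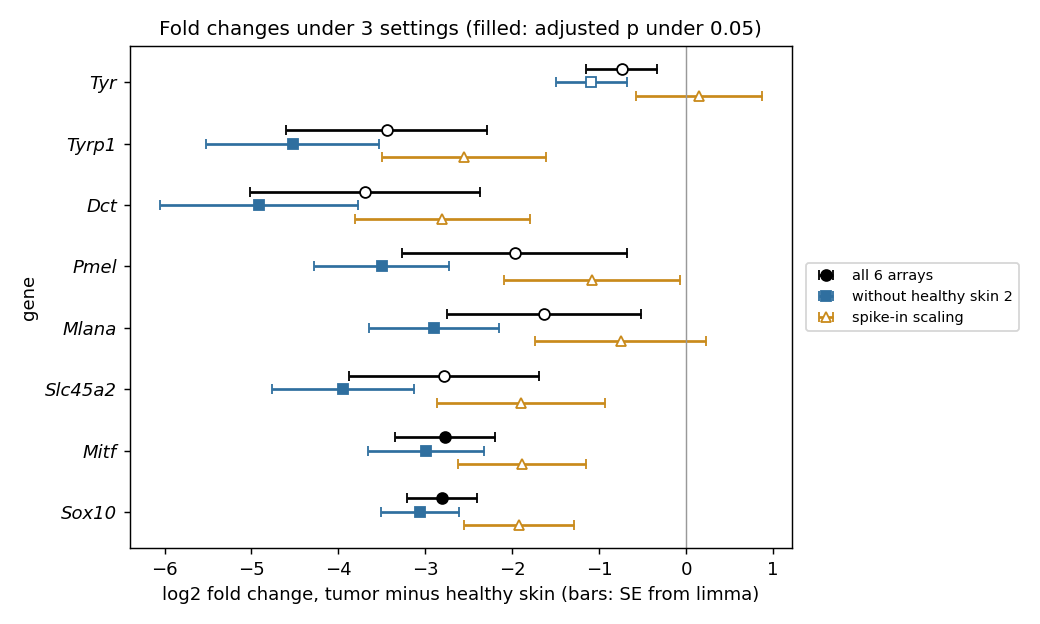
Log2 fold changes, tumor minus healthy skin, of the 8 genes that passed the filter (horizontal axis; bars are SE from limma) with all 6 arrays, without healthy skin 2 and with spike-in scaling; filled symbols have an adjusted p under 0.05. Mitf and Sox10 are filled with all 6 arrays, 7 genes are filled without healthy skin 2, and none is filled with spike-in scaling. The setting without healthy skin 2 was picked for drawing after its low levels were seen.

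The order of the biopsies was read only where spots were well above background. Of the 7 genes measured on all 3 healthy skins, 5 (Tyr, Tyrp1, Dct, Pmel and Mlana) had the order 1 over 3 over 2, as did 4.44% of the 22282 features so measured. In Mitf and Sox10 healthy skin 3 was highest instead, and healthy skins 1 and 2 differed by 0.22 and 0.15 log2 units. In Dct, Tyrp1, Pmel and Mlana healthy skin 1 was at least 2 log2 units above healthy skin 2, as in 0.714% of these features. In the same 4 genes healthy skin 3 also was, as in 0.0808%, or 18 features. The gap of 2, the order 1 over 3 over 2 and the tumor order given below were chosen after the values were seen. The shares beside them are thus descriptions only and lend no support. Over these features the median of healthy skin 1 minus healthy skin 2 was -0.07, and the 95th percentile was 0.648. Of the 6 genes measured on all 3 tumors, tumor 2 was the lowest in 5, in Tyr by a margin of -3.51 against -3.49 in tumor 3. The order tumor 3 over 1 over 2 held in 3 of them (Dct, Pmel and Mlana), against 9.12% of the features measured on all tumors. These 3 genes had both orders at once, as did 0.486% of the features measured on all 6 arrays. Tumor 1 had a median local background of 85, against 23 to 26 on the other 5 arrays, so its floor was higher (-3.64, against -5.94 to -4.28 elsewhere), and low levels on it are less certain.

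**Figure D3:**
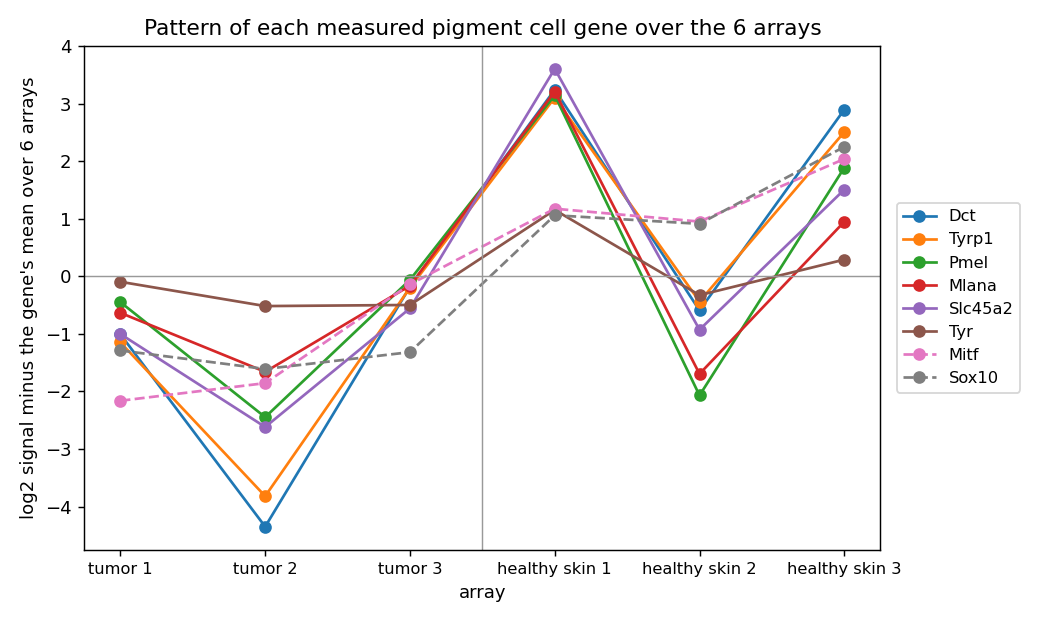
Level of each gene on each array minus that gene's mean over the 6 arrays (vertical axis, log2 units), tumors left and healthy skins right. Solid lines (enzymes and melanosome proteins) are highest in healthy skin 1 and low in healthy skin 2, while the dashed lines of Mitf and Sox10 are nearly equal in healthy skins 1 and 2; Tyrp1 in tumor 2 and Slc45a2 in tumors 1 and 2 and healthy skin 2 were not well above background.

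Over the 6 arrays Dct was most like Tyrp1 of 24752 other features (Pearson r = 0.998), followed among named genes by Dlx3 (0.980), a homeobox gene of the hair follicle, and Gm11223 (0.978). Mlana was most like Lrrc75b (0.989), then Pmel (0.972, rank 4) and Psg17 (0.969). Mitf was most like Mturn, Bex1 and Pmp22 (0.997 each), the last a myelin protein of Schwann cells. Dct ranked far lower for likeness to Mitf (rank 4689, r = 0.812). In likeness to Dct, Mitf was rank 989 and Sox10 was rank 1339 (r = 0.795). These correlations describe 6 biopsies from 2 groups that share the group difference, and no test is attached to them. The Tyrp1 value of tumor 2, which enters its likeness to Dct, was not well above background. Lrrc75b lay below the detection floor on tumors 1 and 2 and healthy skin 2. Psg17 lay below it on tumor 1 and healthy skin 3, so the likeness of these genes to Mlana rests partly on unmeasured levels.

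Of 5 other melanocyte markers, 4 passed the filter and 1 was called. Pax3, the neural crest factor that acts with Sox10 on Mitf, was -3.19, -3.49 and -3.09 in the tumors, against -1.36, -1.98 and -0.62 in the healthy skins. It was lower without overlap (log2 fold change -1.93 ± 0.39 SE; limma, adjusted p = 0.0121), with healthy skin 3 highest as for Mitf and Sox10. A second Pax3 probe was well above background in 0 of 3 tumors and 3 of 3 healthy skins. Mc1r, the receptor for melanocyte-stimulating hormone, was -3.19, -4.40 and -3.63 in the tumors, against -0.47, -7.31 and -2.32 in the healthy skins, and it did not pass (adjusted p = 0.873). Its healthy skin 2 value was not well above background, and it was below every tumor. Slc24a5, a melanosomal ion exchanger, had a log2 fold change of 0.29 (adjusted p = 0.853) with healthy skin 1 alone above the tumors. Gpr143, a melanosomal receptor, was well above background in 1 tumor and 1 healthy skin and did not pass the filter. Trpm1, a channel gene that Mitf activates, had 4 probes that differed in their order of biopsies. The one that stands for the gene had a log2 fold change of -2.88 (adjusted p = 0.0622), with tumor 2 between healthy skins 2 and 1.

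A wider list held these 5 markers and also genes for melanosome assembly and transport, receptors and related functions, many of which other cells also use. Of its 32 genes, 31 passed the filter, 5 were higher and 1 (Pax3) was lower, and the median log2 fold change was 0.21. Over all features tested, 10.3% were called higher and 15.6% lower. The 5 higher genes included Slc7a11, the cystine transporter (log2 fold change 3.35), which was well above background in only 1 of 3 healthy skins. The others were Mlph (2.61) and Rab27a (1.71), which couple melanosomes to myosin, Hps1 (1.67), a subunit of a melanosome assembly complex, and Rab32 (1.46). Of 18 genes for signals that act on melanocytes, 12 passed, with 1 higher and 4 lower, beside the same shares over all features. Nrg1, the neuregulin growth factor, was 3.34, 4.73 and 3.02 in the tumors, against -1.06, -1.33 and -2.29 in the healthy skins, a log2 fold change of 5.26 ± 0.53 (SE; limma, adjusted p = 0.00107). Every tumor was thus well above every healthy skin. The 4 lower genes were Bmp4 (-3.84), Lef1 (-2.61), Fgf2 (-2.24, well above background in only 1 of 3 tumors) and the melanocortin antagonist Agrp (-2.01). Kitl, the growth factor for the Kit receptor of melanocytes, had -0.71 (limma, adjusted p = 0.347). Of the relatives of Mitf and Sox10, 4 of 5 passed and only Tfeb was called (-1.28, adjusted p = 0.0246), while Tfe3 (0.44), Tfec (1.15) and Sox9 (-0.35) did not pass.

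Mitf and Sox10 are not confined to melanocytes. Among lists for other cells that use them, Schwann cell and neural crest genes were more often called lower than higher. The mast cell list and the macrophage and osteoclast list each had as many genes called higher as lower. Over all features tested, 15.6% were called lower and 10.3% higher. Of 22 Schwann cell and neural crest genes, 21 passed, 12 were lower and 1 was higher, with a median log2 fold change of -2.07. Their median level was -2.60, -1.46 and -2.06 on the tumor arrays, against -0.14, -0.26 and 1.11 on the healthy skin arrays. S100b, a calcium-binding protein of Schwann cells singled out after its values were seen, was -4.60, -2.67 and -3.76 in the tumors, against -0.14, -0.17 and 1.11 in the healthy skins (log2 fold change -3.94 ± 0.57 SE; limma, adjusted p = 0.00368). S100b was well above background in 2 of 3 tumors and 3 of 3 healthy skins. Like Sox10, S100b was nearly equal in healthy skins 1 and 2 and highest in healthy skin 3. The summed level of the list went the other way, at 66.6 to 181 times the 75th percentile in tumors and 38.0 to 66.5 in healthy skin. That sum was dominated by Mal, a membrane protein that epithelia also express, which was higher in tumors (5.53, adjusted p = 0.000912), while Mbp (0.62, adjusted p = 0.343) did not pass. Of 15 mast cell genes, 13 passed, 2 were higher and 2 lower (summed level 8.47 to 25.6 in tumors and 6.15 to 75.5 in healthy skin). Hdc, the histamine-making enzyme, was higher (3.41, adjusted p = 0.0103), and the protease gene Mcpt4 had -1.86 (adjusted p = 0.247). Of 15 macrophage and osteoclast genes 1 was higher (Cd68, 2.61) and 1 lower (Cd163, -2.73), with sums of 132 to 254 in tumors and none over 110 in healthy skin. The part of these cells in the Mitf and Sox10 values was not tested.

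The healthy skins also differed in hair genes. Of 32 hair shaft, root sheath and hair matrix genes, 29 passed, 0 were higher and 3 were lower in tumors. Their median level was 1.48, -1.71 and 1.36 on the tumor arrays, against 4.11, -1.61 and -1.34 on the healthy skin arrays, and their summed level was 103 to 211 in tumors and 28.0 to 745 in healthy skin. The root sheath keratin Krt71 was 5.76, -5.44 and 5.39 in the tumors, against 7.62, -1.21 and -1.53 in the healthy skins. Krt71 was thus high in healthy skin 1 and tumors 1 and 3 and low in healthy skin 3, where Dct was 3.18. The brightest keratins of the list did not take this order. Krt85 was 4.33, 5.23 and 4.62 in the tumors, against 4.11, 3.41 and 1.87 in the healthy skins, and Krt81 was 3.24, 3.70 and 3.31 in the tumors, against 4.41, 1.43 and -1.20 in the healthy skins. Both were highest among tumors in tumor 2, and neither passed the test (adjusted p = 0.0796 and 0.282). The 3 lower genes were regulators of the hair matrix. Their number among 29 does not exceed the 15.6% of all features called lower. Msx1 (0.63), Foxn1 (-0.78) and Dlx3 (-0.66), regulators of the same list, did not pass. Hoxc13 was -2.72, -5.47 and -1.45 in the tumors, against 1.57, -0.34 and 1.17 in the healthy skins (log2 fold change -4.01 ± 0.999 SE; limma, adjusted p = 0.0254). Lef1, which also stands in the list of melanocyte signals, was -0.19, -2.51 and -1.47 in the tumors, against 2.05, -0.29 and 1.91 in the healthy skins (-2.61, adjusted p = 0.0460), and Msx2 had -1.63 (adjusted p = 0.0422). Msx2 was 1.16, -0.67 and 0.26 in healthy skins 1, 2 and 3, so healthy skin 3 lay midway. Hoxc13, Lef1 and Msx2 thus had the order 1 over 3 over 2, like Tyr, Tyrp1, Dct, Pmel and Mlana. So did 4.44% of all features measured on the 3 healthy skins, and the match was picked after the values were seen. Krt71, Krt81 and Krt85 had the order 1 over 2 over 3, and the other genes of the list were mixed. Muscle and fat were also lower in tumors, with 12 of 12 skeletal muscle genes (summed level 35.7 to 89.7 in tumors and 1183 to 1832 in healthy skin) and 9 of 11 fat cell genes called (74.6 to 234 in tumors and 240 to 758 in healthy skin). The part of hair, muscle and fat in the pigment gene values was not tested.

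**Figure D4:**
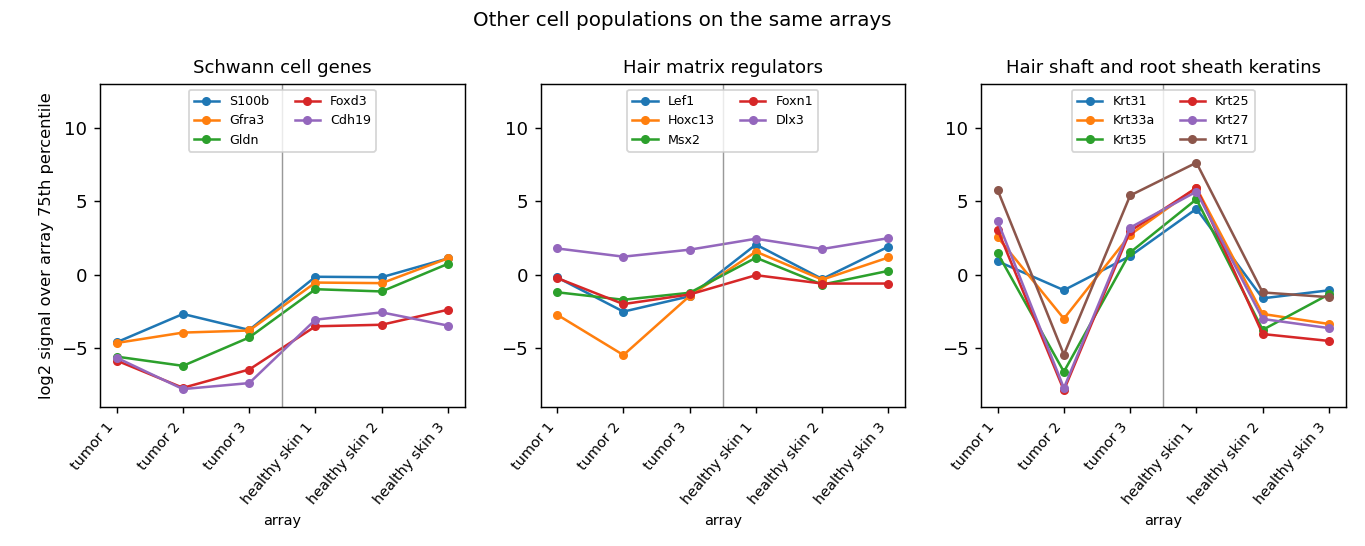
Levels of Schwann cell genes, hair matrix regulators and hair keratins on each array (vertical axis, log2 signal over the array's 75th percentile; tumors left, healthy skins right), for genes picked from their lists after the values were seen. The Schwann cell genes drawn are low in all tumors, but others of their list, such as Mbp and Mal, were not lower. Many of these low tumor levels were unmeasured: Foxd3 and Cdh19 were well above background in 0 of 3 tumors, Gldn in 1, and S100b and Gfra3 in 2. Krt35, Krt25 and Krt27 were well above background in 2 of 3 tumors, and Krt25 in 2 of 3 healthy skins. Hoxc13, Lef1, Msx2 and Dlx3 dip in healthy skin 2, and the 6 keratins drawn are high in tumors 1 and 3 and healthy skin 1.

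The rows of the slide were uneven between groups, since healthy skins 1 and 2 lay in row 1 and healthy skin 3 with the 3 tumors in row 2. With the row as a block, the comparison was one of the 3 tumors with healthy skin 3 alone, which was the highest healthy skin for Mitf and Sox10. Mitf then had a log2 fold change of -3.42 (limma, adjusted p = 0.0269) and Sox10 of -3.65 (adjusted p = 0.00441), and both p-values rest on that 1 healthy array. The same difference was -4.74 for Dct and -4.23 for Tyrp1. It was -2.87 for Pmel, -1.77 for Mlana, -2.90 for Slc45a2 and -0.66 for Tyr.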

How the data were processed

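RNA of 3 tumors and 3 healthy skins was hybridised to 6 arrays of 1 slide. The deposited scanner files hold spot intensities made with Feature Extraction 10.7.3.1 and probe positions on mm9, per the file headers; the submitters' processing notes name limma. The deposited series table holds log2 values per probe, which rank probes as the median spot intensities do; its normalization is not given in the sources used here.

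Log2 processed signals were set against each array's 75th percentile over 59305 non-control spots. Probes with a flagged spot average on any array (180 of 55681) were left out, spots of a probe were averaged, and probes well above background on at least 3 arrays (34283) were kept. The probe with the highest mean stood for its gene, giving 24753 features, of which 16470 took their name from the RefSeq table. Saturated non-control spots numbered 0 on every array, and 48.7% to 65.4% of spots were well above background; 3 arrays a group limit the precision. Groups were compared with limma 3.58.1 (R 4.3.3), two-sided, with Benjamini-Hochberg adjustment over all features and no block; the procedure was tested on simulated data. Same-numbered tumors and healthy skins had correlations of deviations of 0.10, 0.13 and -0.08 and were not treated as pairs.

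The 9 genes and all gene lists were chosen with earlier results of these data known. All members were named, as were up to 8 called genes of the melanosome and signal lists, and of each other list the 2 brightest and the 2 with the lowest adjusted p; likeness was given for the 3 members with the highest mean. A gene that this rule names is not reported here. S100b, Gfra3, Krt71 and other genes drawn beside them, and Mc1r, Slc24a5, Gpr143, Trpm1, Kitl and Msx1, were named outside that rule.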

Additional observations from a re-analysis of the deposited data

How the results depend on the processing

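The number of the 8 tested genes called lower was 2 as reported. It was 0 with spike-in scaling, 1 when tested against a log2 fold change of 1, 1 without the healthy skin 3 and tumor 1 arrays (Mitf was lost, at -2.06, adjusted p = 0.0847), 3 with normexp (Tyrp1 added, at -2.36, adjusted p = 0.0479), and 2 to 7 when 1 array was left out. No gene was called higher under any setting. The sign of the fold change was negative in every alternative for 7 of the 8 genes; Tyr turned to 0.15 with spike-in scaling and was -0.27 in the deposited table, -0.37 with median scaling and -0.39 with quantile normalization. With spike-in scaling Pmel was at -1.08 and Mlana at -0.75. The median over the genes ran from -3.28 without healthy skin 2 to -1.79 with normexp. Over all features, 6420 were called. Without a filter 3919 were called, with spike-in scaling 2687 and against a log2 fold change of 1 1667, and leaving out 1 array gave 3841 (without tumor 2) to 5459. Median scaling moved the median of all features to 0.21 and the share of calls that were lower to 37.1%. The replicate number as a block (replicate block) gave 5 genes lower, adding Dct, Tyrp1 and Slc45a2 (adjusted p = 0.00242, 0.00356 and 0.0236), and 5471 features called; the numbers are not known to pair biopsies, and 2 of the 3 tumors correlated best with a healthy skin of another number. Dim spots limit Oca2, Slc45a2 and the second Tyr probe.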

Other observations

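Beyond the cells that share Mitf or Sox10, stem cell genes of the hair follicle bulge, where melanocyte stem cells also reside, were lower in tumors for 6 of 14 genes, with 0 higher and a median log2 fold change of -1.57. Lhx2, a transcription factor of these cells, had -5.43 and Fgf18, a growth factor that they secrete, -3.92 (limma, adjusted p = 0.000854 and 0.00106). Healthy skin 2 did not fall among the tumors for either gene: Lhx2 was -2.09, -1.88 and -1.62 in the tumors, against 3.49, 2.59 and 4.63 in the healthy skins. Of 12 keratinocyte genes, 1 was higher and 2 were lower, with a median of 0.13; the differentiation keratin Krt10 had -3.38 and the desmosomal cadherin Dsg3 1.43 (adjusted p = 0.0185 and 0.0395). Of 10 nerve genes, 6 passed, with 1 higher (Tubb3, 4.04) and 1 lower (Snap25, -2.72). Beside the counts of these lists, 15.6% of all features tested were called lower and 10.3% higher.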
